A study of Arabidopsis thaliana with 6 samples.

Results

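ACC oxidases catalyse the last step of ethylene synthesis, the conversion of 1-aminocyclopropane-1-carboxylic acid (ACC) to ethylene, a gaseous hormone with roles in fruit ripening, senescence, stress responses and growth. They belong to the large family of plant dioxygenases that bind iron at their active site, most of which use 2-oxoglutarate as a co-substrate, whereas ACC oxidases use ascorbate. The supply of ACC by ACC synthases and its oxidation are both known points of control of ethylene production. The genes described here are 5 ACC oxidase genes, among them AT1G12010, *EFE* (AT1G05010, also named *ACO4*), AT1G77330 (also named *ACO5*) and *ACO1* (AT2G19590), and 5 related dioxygenase genes, AT1G06620, AT1G06640, AT1G06650, AT1G04350 and AT5G12270. AT1G12010 was chosen by its log2 fold change in these arrays, and that of AT5G12270 was also known when the genes were listed, so the values of these genes are a description and carry no test. A gene is called measured where the annotation of the array names it alone for a probe set, a group of short oligonucleotides read as 1 value. This held for 6 of the 10 genes, among 13356 measured genes in all, and each of the 6 had 1 probe set. The other 4, *EFE*, AT1G77330 and *ACO1* among them, are not listed there and were not analysed here, so that AT1G12010 is the 1 ACC oxidase gene with values.

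Expression was measured in inflorescences carrying young flower buds, with RNA from 3 individual *tink/ibr5-6* plants and 3 individual plants of the wild type, Landsberg *erecta* (L*er*), on 1 Affymetrix ATH1 array per plant. The *tink/ibr5-6* allele, a mutation in the MAPK phosphatase gene *IBR5*, was found among mutagenized *klu-2* plants, and the single mutant was recovered by backcrossing to L*er*. Both genotypes are therefore in the L*er* background, and the mutant is 1 allele. No source used here gives the age of the plants. *IBR5* and *KLU* are not listed by the annotation, so that the genotypes were not checked at either gene.

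The deposited values are on a log2 scale, on which a difference of 1 is a doubling, and their floor is 2.1011. Array medians lay between 6.18 and 6.20, and 7154 of 22746 probe sets (31.5%) lay under a log2 value of 3 on all 6 arrays. Values under 3 are treated as low here. A probe set was called when limma's adjusted p (Benjamini-Hochberg over all probe sets) was under 0.05 and the absolute log2 fold change, *tink/ibr5-6* minus L*er*, was above 1. By this rule 966 probe sets were called, 349 higher and 617 lower in *tink/ibr5-6*. The floral identity genes *CLV3* and *UFO*, the 2 measured of 14, lay at the floor on every array and do not check the tissue. Of 26 pollen genes, 10 were measured, 6 were called lower and 0 higher in *tink/ibr5-6*, and their mean log2 value per array was 3.17 to 3.81 in *tink/ibr5-6* and 5.94 to 6.74 in L*er*. Of 17 tapetum genes, 3 were measured and 0 were called. Of these, *AMS*, a tapetum transcription factor, passed the p threshold but not the fold limit (log2 fold change 0.89, limma adjusted p = 0.025). The genotypes did not overlap for 2 of the 3, both higher in *tink/ibr5-6*. Over all probe sets, 21.3% did so in that direction and 35.7% in either, and 3 genes are too few to read a direction from. Whether the 6 plants were grown side by side is not stated, so a p-value reflects how far these 6 plants varied. In whole inflorescences, a change in RNA per cell cannot be told apart from a change in the number of cells of a type.

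AT1G12010 had log2 values of 9.65, 10.51 and 10.63 in the 3 *tink/ibr5-6* plants, against 2.10, 2.24 and 2.24 in the 3 L*er* plants. The L*er* values lay at or next to the floor, and all of the mutant values lay far above it. The mean was 10.26 ± 0.54 in *tink/ibr5-6* plants and 2.19 ± 0.08 in L*er* plants (SD, n = 3 each). Because a value at the floor bounds a level and does not measure it, the change is given as at least 154-fold, counted from a log2 value of 3 to the mean of the mutant. The fitted log2 fold change was 8.07, and 7.89 to 8.38 when each array was left out in turn, but it is counted from L*er* values at the floor and does not give the size of the change. Whether the probe set also reads transcripts of other ACC oxidase genes was not tested, since no probe sequences were used here.

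**Figure D1:**
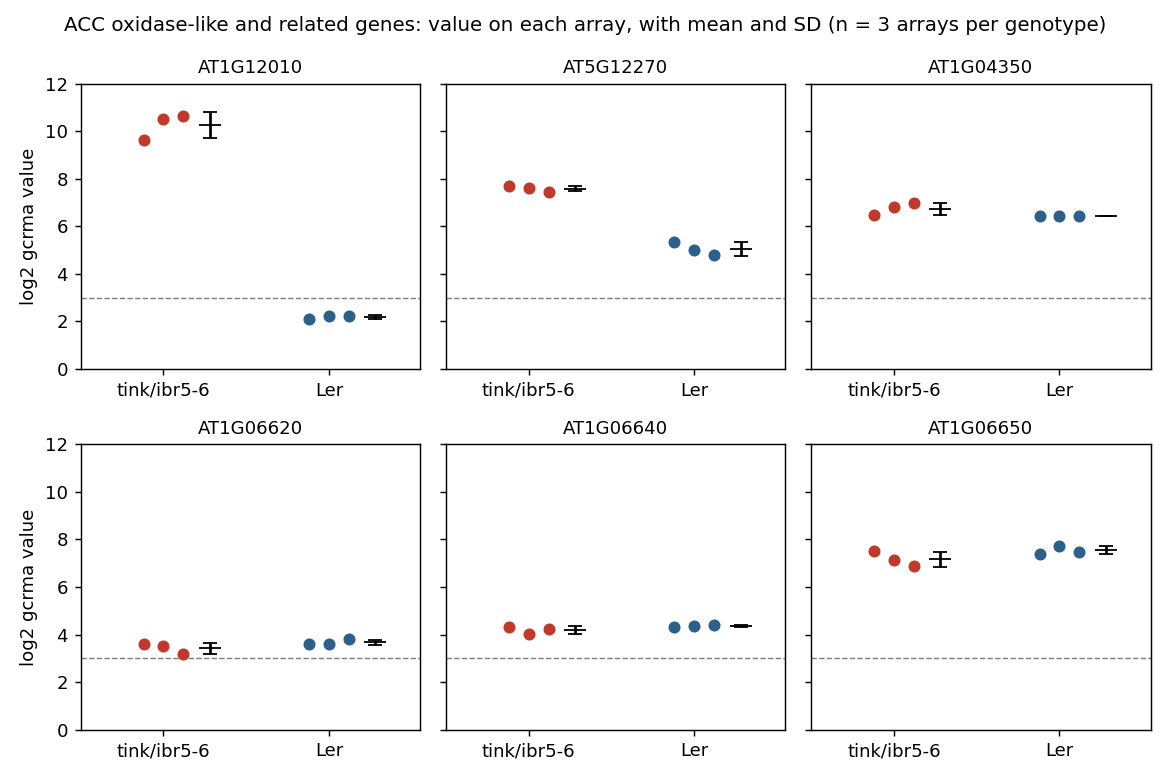
Log2 gcrma value of the 6 measured genes on each array (points, *tink/ibr5-6* in red on the left, L*er* in blue on the right) with the mean and SD of the 3 arrays per genotype (bars) and the log2 value of 3 (dashed line). AT1G12010 lies between 9.65 and 10.63 in the mutant and at or next to the floor in L*er*, AT5G12270 separates by less, and AT1G06620, AT1G06640 and AT1G06650 overlap between genotypes.

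The second of the listed genes with a large difference was AT5G12270, annotated as an oxidoreductase of the 2-oxoglutarate and iron dependent oxygenase family and the only measured gene of the set that is not on chromosome 1. Its log2 values were 7.68, 7.62 and 7.46 in *tink/ibr5-6*, against 5.35, 5.01 and 4.79 in L*er*. Every mutant plant lay above every L*er* plant, and all 6 values lay well above the floor, so the size of the change was measured on both sides. The mean was 7.59 ± 0.11 in *tink/ibr5-6* plants and 5.05 ± 0.28 in L*er* plants (SD, n = 3 each), giving a log2 fold change of 2.54 (standard error, SE, 0.17), or 5.80-fold. It lay between 2.40 and 2.68 when each array was left out in turn. AT3G13610, an enzyme of coumarin synthesis to which the annotation likens AT5G12270, had log2 values of 6.52, 5.88 and 5.42 in *tink/ibr5-6* and 6.34, 6.54 and 6.75 in L*er*, which overlap, with a log2 fold change of -0.60 (limma adjusted p = 0.32). It is named after its values were seen.

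The other 4 measured genes lay close to their L*er* levels. AT1G04350 had log2 values of 6.47, 6.79 and 6.97 in *tink/ibr5-6*, against 6.43, 6.43 and 6.45 in L*er*. The genotypes did not overlap, but the lowest mutant value almost met the L*er* values, which were nearly identical. The log2 fold change was 0.31 (SE 0.14, 95% interval -0.07 to 0.68, limma adjusted p = 0.24). Without *tink/ibr5-6* replicate 1, the mutant plant closest to L*er*, it was 0.44 (limma adjusted p = 0.048), below the fold limit for a call.

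AT1G06620, AT1G06640 and AT1G06650 stand near each other on chromosome 1, each 2 protein-coding places from the next, and each averaged lower in *tink/ibr5-6* without passing the test. AT1G06650 had log2 values of 7.50, 7.14 and 6.88 in *tink/ibr5-6* and 7.41, 7.73 and 7.49 in L*er*. Mutant replicate 1 lay within the L*er* values and the other mutant plants below them, for a log2 fold change of -0.37 (SE 0.19, 95% interval -0.89 to 0.15, limma adjusted p = 0.31). AT1G06640 had log2 values of 4.33, 4.02 and 4.25 in *tink/ibr5-6* and 4.33, 4.35 and 4.41 in L*er*. The highest mutant value met the lowest L*er* value, and the log2 fold change was -0.16 (95% interval -0.41 to 0.09, limma adjusted p = 0.34). AT1G06620 lay nearer the floor, with log2 values of 3.59, 3.53 and 3.17 in *tink/ibr5-6* and 3.62, 3.59 and 3.80 in L*er*. Its genotypes overlapped, and the log2 fold change was -0.24 (95% interval -0.62 to 0.13, limma adjusted p = 0.36). The intervals of AT1G04350, AT1G06620, AT1G06640 and AT1G06650 all lie within a doubling in either direction.

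Of the 6 measured genes, 2 were thus called higher and 0 lower, where 1.53% of all probe sets were called higher and 2.71% lower, and 5.98% of genes with a value of 3 or more on some array were called in either direction. The 2 are the genes whose changes were known beforehand, and nothing is read from that count. The genotypes did not overlap for 3 of the 6, all higher in *tink/ibr5-6*. Over all probe sets, 21.3% did so in that direction and 35.7% in either. AT1G12010 and AT5G12270 are 2 of these 3, and the other is AT1G04350. The median log2 fold change of the 6 was 0.07, against 0.00 over all probe sets. It also includes the 2 genes known beforehand, so nothing is read from these values either.

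**Figure D2:**
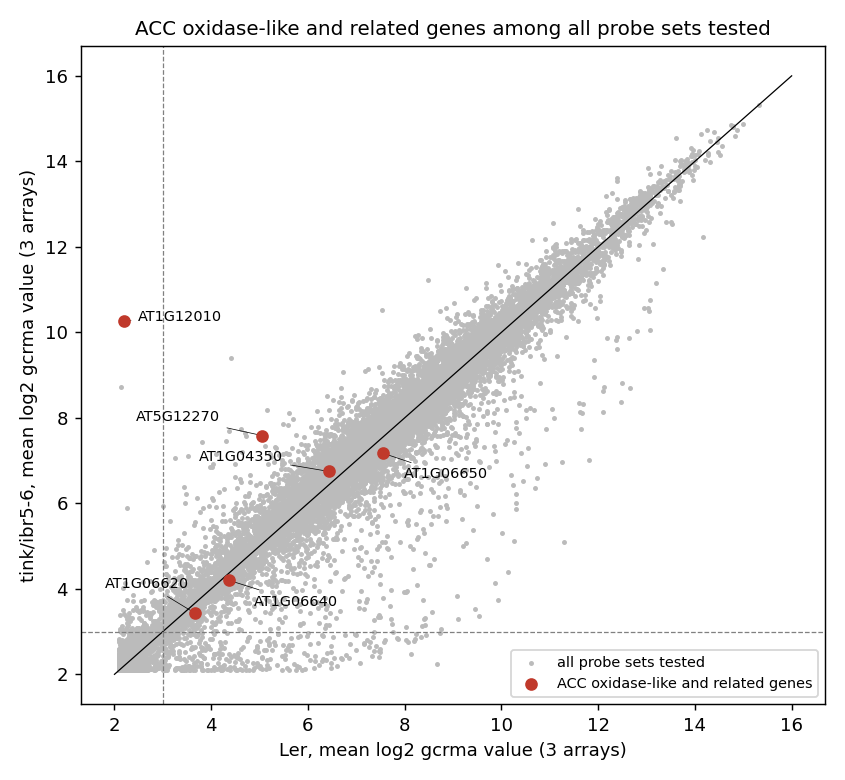
Mean log2 gcrma value of each probe set in *tink/ibr5-6* (vertical) against L*er* (horizontal), over 3 arrays each, with the 6 measured genes in red, all 22746 probe sets in grey, equality as a solid line and the log2 value of 3 as dashed lines. AT1G12010 stands apart at 10.26 in the mutant and 2.19 in L*er*, AT5G12270 lies above the cloud, and the other 4 lie within it.

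The step of AT1G12010, under 3 on all arrays of 1 genotype and above 8 on all arrays of the other, was shared by 2 further probe sets of the array, and neither is annotated to a single gene. One averaged 8.71 ± 0.39 in *tink/ibr5-6* plants and 2.14 ± 0.02 in L*er* plants (SD, n = 3 each), the same direction as AT1G12010. The other ran the opposite way, with 2.25 ± 0.08 in *tink/ibr5-6* plants and 8.67 ± 0.24 in L*er* plants (SD, n = 3 each).

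None of the measured genes nearest to AT1G12010 on chromosome 1 was called higher in the mutant. The nearest measured gene on one side, AT1G12000, averaged 10.52 ± 0.17 in *tink/ibr5-6* plants and 10.46 ± 0.21 in L*er* plants (SD, n = 3 each). The nearest on the other side, AT1G12020, averaged 3.67 ± 0.11 in *tink/ibr5-6* plants and 3.25 ± 0.20 in L*er* plants (SD, n = 3 each, limma adjusted p = 0.10). AT1G11970, AT1G11990 and AT1G12030 lay at the floor on all arrays, so no lack of change is read from them. AT1G11960 averaged 4.96 in *tink/ibr5-6* and 5.43 in L*er* (limma adjusted p = 0.10). AT1G12080 averaged 9.97 in *tink/ibr5-6* and 10.90 in L*er* (limma adjusted p = 0.063). Neither was called. The genotypes did not overlap for AT1G11960 and AT1G12080, both lower in *tink/ibr5-6*, and for AT1G12020, higher. Over all probe sets, 14.4% did so lower and 21.3% higher.

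Over the 20 measured genes on either side, 40 in all, 0 were called higher and 2 lower, where 4.25% of all probe sets were called. One of them was AT1G12150, named after its values were seen, with 2.17 on all arrays of *tink/ibr5-6* and 3.40, 3.35 and 3.46 in L*er*. The median log2 fold change of the 40 was 0.00, and the values ran from -4.09 to 0.51. Several of the 40, AT1G12100, AT1G12130 and AT1G12190 among them, lay under 3 on all arrays. Their log2 fold changes stay near 0 and enter this median. *KLU*, the gene mutated in the parental *klu-2* line, lies 182 protein-coding genes from AT1G12010 on the same chromosome. Between them 78 genes were measured, of which 1 was called higher and 3 lower (5.13%), with a median of 0.00. Genes under 3 on all arrays are not set apart among the 78. Whether a linked segment has a part in the change of AT1G12010 was not tested.

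**Figure D3:**
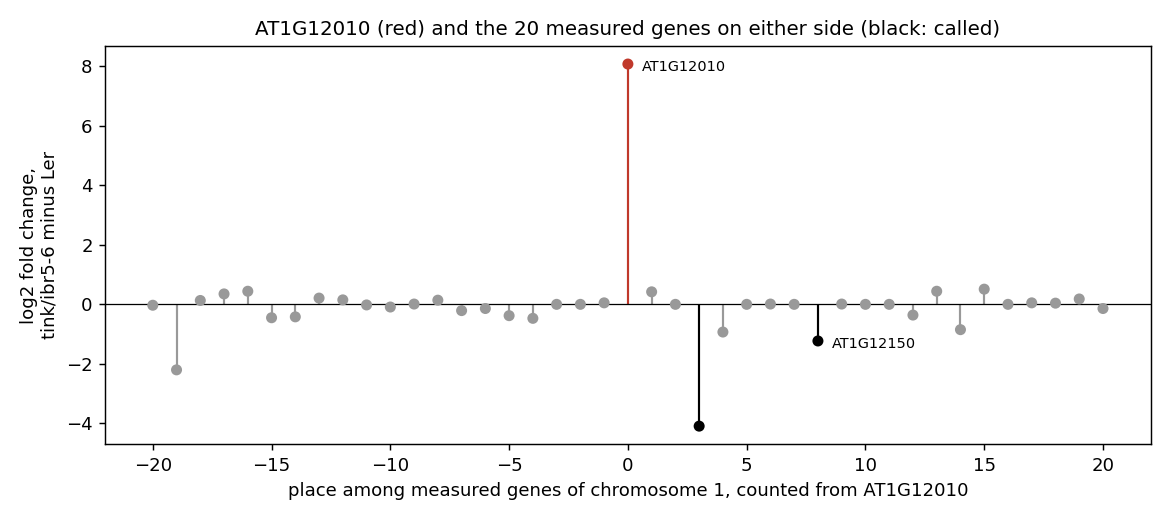
Log2 fold change, *tink/ibr5-6* minus L*er* (vertical), of AT1G12010 (red) and the 20 measured genes on either side, by their place among measured genes of chromosome 1 (horizontal), with called neighbours in black. AT1G12010 at 8.07 is the only gene shown that was called higher, and 2 genes, AT1G12150 among them, were called lower.

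Across the 6 arrays, the 5 genes whose values were most like those of AT1G12010 (Pearson r, among genes with an SD of at least 1) were AT1G30960, AT5G55620, AT1G28610, *UGT73C1* (AT2G36750) and *CYP71B26* (AT3G26290), with r between 0.9918 and 0.999. With 3 plants per genotype such an r reflects mainly the gap between genotypes, and it is given as a description. AT1G30960, annotated as a GTP-binding protein, had log2 values of 6.54, 6.67 and 6.81 in *tink/ibr5-6* and 4.82, 4.80 and 4.76 in L*er*. AT1G28610, annotated as a GDSL-motif lipase, averaged 8.69 ± 0.03 in *tink/ibr5-6* plants and 6.68 ± 0.11 in L*er* plants (SD, n = 3 each). *CYP71B26*, a cytochrome P450, averaged 8.50 ± 0.07 in *tink/ibr5-6* plants and 6.38 ± 0.12 in L*er* plants (SD, n = 3 each). *UGT73C1*, a UDP-glycosyltransferase, was near the floor in L*er*, as AT1G12010 was, with a mean of 4.13 ± 0.09 in *tink/ibr5-6* plants and 2.21 ± 0.06 in L*er* plants (SD, n = 3 each), a difference of at least 2.19-fold. AT5G55620, of unknown function, averaged 9.13 ± 0.08 in *tink/ibr5-6* plants and 7.23 ± 0.11 in L*er* plants (SD, n = 3 each). The log2 fold changes of the 5 lay between 1.88 and 2.12, a direction that the choice by r fixes.

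The rest of the ethylene pathway was covered only in part, with 8 genes measured of the 76 in the lists for ACC synthases and their regulators, ACC supply, perception and response. Of the 8, 0 were called by limma, where 4.25% of all probe sets were called, and 1, *ETP2*, had an unadjusted p under 0.05. None of the 14 ACC synthase and regulator genes was measured, so that the step before ACC oxidase was not seen at all. Of the 16 genes of the methionine cycle, which recycles the by-product of ACC synthesis, and of ACC supply and transport, *ARD4*, an acireductone dioxygenase of that cycle, was the 1 measured. It had log2 values of 9.57, 9.73 and 9.49 in *tink/ibr5-6* and 8.90, 9.32 and 9.40 in L*er*. The mutant plants lay just above the L*er* plants, with a log2 fold change of 0.39 (95% interval -0.05 to 0.83, limma adjusted p = 0.21).

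Of 19 genes of perception and signalling, 4 were measured. *EIN3* encodes the transcription factor at the end of the ethylene signalling chain. Its RNA had nearly the same log2 value in both genotypes, 9.20 ± 0.01 in *tink/ibr5-6* plants and 9.20 ± 0.03 in L*er* plants (SD, n = 3 each). No protein was measured, so nothing is read from this about signalling. The 95% interval of the *EIN3* log2 fold change ran from -0.05 to 0.05 (SE 0.02). That width depends on the fit: the SE was 0.06 with a trended robust prior and with a mean of at least 4. *RTE1*, which acts on the ethylene receptor ETR1, and its homologue *RTH* each had a log2 fold change of 0.06 (limma adjusted p = 0.60 for *RTE1* and 0.89 for *RTH*). *ETP2*, an F-box gene whose product targets the signalling protein EIN2 for degradation, had log2 values of 7.70, 7.41 and 7.58 in *tink/ibr5-6* and 7.26, 6.89 and 7.01 in L*er*. All mutant plants lay above all L*er* plants, with a log2 fold change of 0.50 (95% interval 0.15 to 0.86, limma adjusted p = 0.076).

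Of 27 ethylene response genes, 3 were measured. The defensin gene *PDF1.2*, which responds to ethylene and jasmonate together, had log2 values of 3.35, 3.35 and 3.52 in *tink/ibr5-6* and 3.35 on all arrays of L*er*. The repeated 3.35 may be a floor of this probe set, so no lack of change is read from it. *PDF1.2b* lay at the floor on all arrays. *ARL*, an organ size gene of the *ARGOS* family, averaged 4.69 ± 0.03 in *tink/ibr5-6* plants and 4.88 ± 0.16 in L*er* plants (SD, n = 3 each), with a log2 fold change of -0.20 (95% interval -0.44 to 0.04, limma adjusted p = 0.23). The response list was thus covered by few genes, with *PDF1.2b* under 3 on all arrays and *PDF1.2* mostly at a repeated low value.

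**Figure D4:**
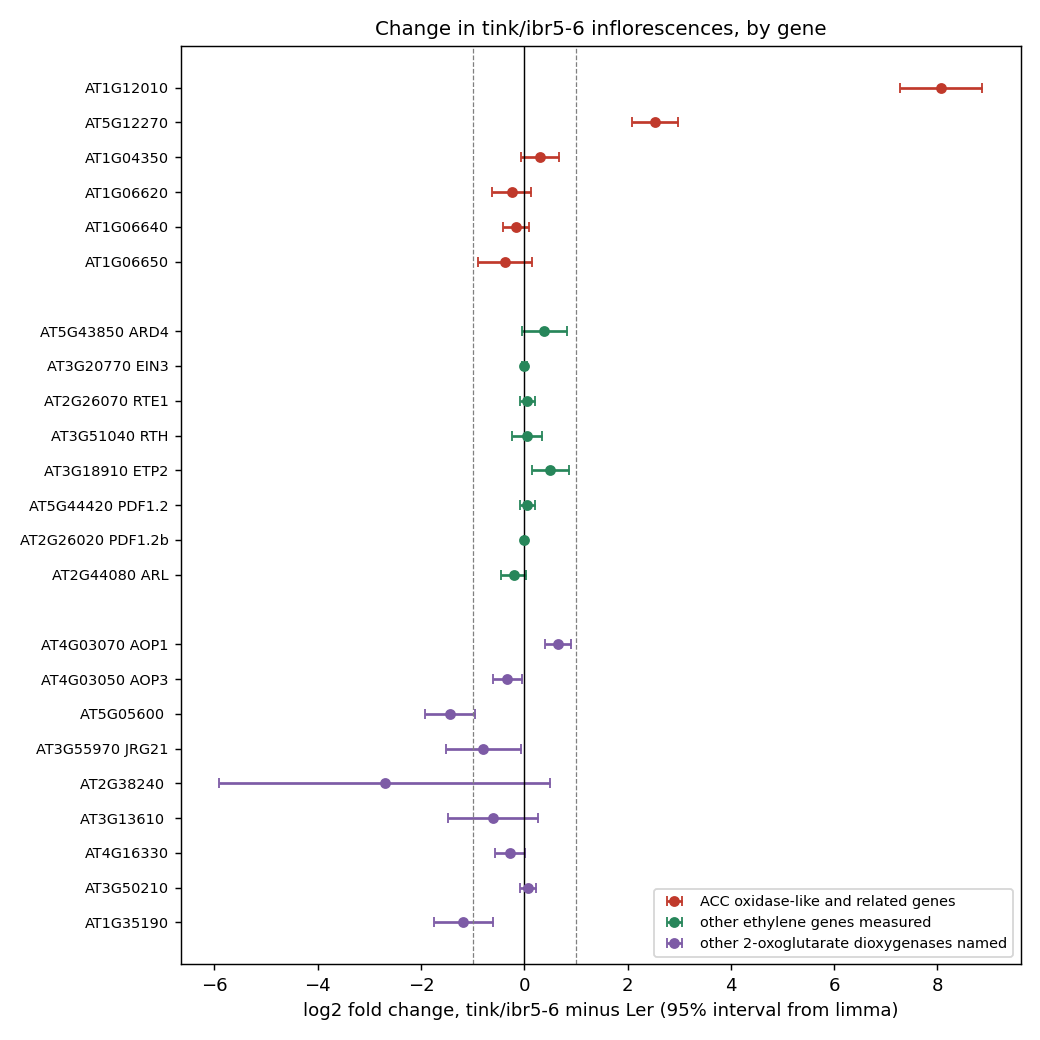
Log2 fold change, *tink/ibr5-6* minus L*er*, with its 95% interval from limma (n = 3 arrays per genotype), for the 6 measured genes (red), the 8 measured genes of the ethylene lists (green) and 9 other dioxygenases named in the text (purple; AT3G11180 is not drawn), with dashed lines at -1 and 1. AT1G12010 at 8.07, fitted against L*er* values at the floor, and AT5G12270 at 2.54 lie to the right of the limit, no ethylene gene reaches it, and AT5G05600, AT1G35190 and AT2G38240 lie beyond it on the left.

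Other 2-oxoglutarate dioxygenases, a class whose enzymes act in hormone, flavonoid, glucosinolate and coumarin metabolism, were examined beside these genes. Of 83 listed, 46 were measured, and 29 of the 46 lay under 3 on all arrays. By limma, 0 were called higher, 2 lower and 44 not called, where 4.25% of all probe sets were called. Both called genes are among the 17 of the class with a value of 3 or more on some array. Of all measured genes with such a value, 5.98% were called. The median log2 fold change was 0.00 over the 46 and -0.12 over the 17 with a value of 3 or more on some array, against 0.00 over all probe sets and 0.05 over those with such a value. *JRG21* (AT3G55970) and AT5G58660 are among the 17 only through L*er* arrays. AT5G58660 lay at 2.73 on every array but L*er* replicate 1 (3.10), and its own log2 fold change is -0.12. Nothing is therefore read from the median of the 17. The pollen genes, whose mean log2 values were 3.81, 3.56 and 3.17 in *tink/ibr5-6* and 5.94, 6.74 and 6.18 in L*er*, averaged lower in the same mutant plants, with 6 of the 10 called lower and 1 under 3 on all arrays. Their part in the dioxygenase values was not tested.

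The gene with the larger fall of the 2 called was AT5G05600, annotated as a member of the 2-oxoglutarate and iron dependent oxygenase family. Its log2 values were 6.28, 6.22 and 5.97 in *tink/ibr5-6* and 7.27, 7.81 and 7.71 in L*er*. All mutant plants lay below all L*er* plants, with a log2 fold change of -1.44 (SE 0.18, limma adjusted p = 0.015), or 2.71-fold lower. AT3G11180, to which the annotation likens it, had 2.14 on all 6 arrays. AT1G35190 had log2 values of 4.68, 4.62 and 4.72 in *tink/ibr5-6* and 5.43, 6.18 and 5.94 in L*er*. The mutant values were close together and all below those of L*er*, with a log2 fold change of -1.18 (SE 0.21, limma adjusted p = 0.032), or 2.26-fold lower. With each array left out in turn, AT5G05600 was called in 2 of 6 fits and AT1G35190 in 1. AT5G05600 was not called without *tink/ibr5-6* replicate 1 or 2 or L*er* replicate 2 or 3 (log2 fold change -1.50 to -1.33, limma adjusted p = 0.050 to 0.059), and AT1G35190 was called without L*er* replicate 1 only (in the other fits -1.20 to -1.01, limma adjusted p = 0.069 to 0.11).

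*AOP1*, of the gene family that modifies glucosinolate side chains, passed the p threshold in the other direction but not the fold limit. It had log2 values of 8.37, 8.53 and 8.27 in *tink/ibr5-6* and 7.64, 7.86 and 7.71 in L*er*, giving a log2 fold change of 0.65 (SE 0.10, limma adjusted p = 0.020). *AOP3* of the same family averaged 9.57 ± 0.10 in *tink/ibr5-6* plants and 9.89 ± 0.17 in L*er* plants (SD, n = 3 each), giving a log2 fold change of -0.33 (limma adjusted p = 0.12). AT4G16330 and AT3G50210, the remaining bright ones by the naming rule, had log2 fold changes of -0.27 (limma adjusted p = 0.19) and 0.07 (limma adjusted p = 0.53).

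The lowest fitted value of the class belonged to AT2G38240, named after its values were seen. It lay at 3.20 on all arrays of *tink/ibr5-6* and at 6.07, 7.97 and 3.65 in L*er*. The repeated 3.20 may be a floor of this probe set, in which case the fitted size is counted from a floor. The L*er* plants differed widely among themselves, and the log2 fold change of -2.70 (SE 1.19) did not pass the test (limma adjusted p = 0.23). It was -1.66 without L*er* replicate 2 and -3.82 without L*er* replicate 3. *JRG21* (AT3G55970), a jasmonate-regulated dioxygenase gene also named after its values were seen, had 2.79, 2.91 and 2.96 in *tink/ibr5-6* and 3.15, 3.78 and 4.10 in L*er*. Its genotypes did not overlap, but it did not pass the test (limma adjusted p = 0.14). All mutant values lay under 3, so the difference between the means is given as a bound, at least 1.60-fold. Without L*er* replicate 1 it was called (limma adjusted p = 0.035). Among the 46 dioxygenases, the genotypes did not overlap for 1 higher and 7 lower in *tink/ibr5-6*, where 21.3% and 14.4% of all probe sets did so. All of these genes are among the 17 with a value of 3 or more on some array, *JRG21* only through its L*er* values. The 29 under 3 on all arrays could hardly separate, and such probe sets make up 31.5% of the array. The shares over all probe sets are therefore no like measure for the 46.

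**Figure D5:**
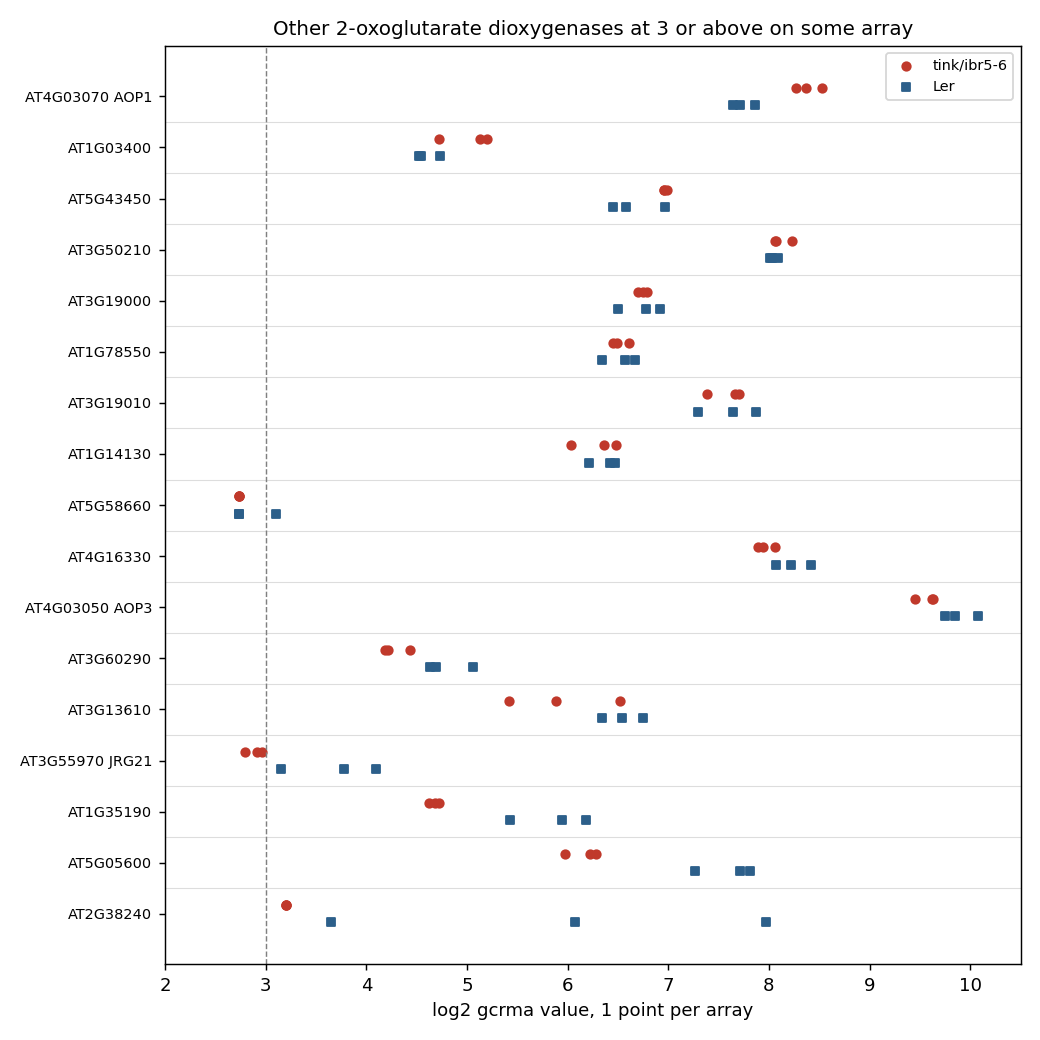
Log2 gcrma value on each array (horizontal; 3 *tink/ibr5-6* arrays as red circles above, 3 L*er* arrays as blue squares below) of the 17 other 2-oxoglutarate dioxygenases with a value of 3 or more on some array, ordered by log2 fold change, with the log2 value of 3 as a dashed line. The mutant plants lie to the right of all L*er* plants for *AOP1*, and to their left for 7 genes, AT5G05600, AT1G35190, *JRG21*, AT2G38240, *AOP3*, AT4G16330 and AT3G60290.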

How the data were processed

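The authors normalized 6 ATH1 arrays, 3 *tink/ibr5-6* and 3 L*er*, with GCRMA, and deposited log2 values, 1 per probe set and array. No source used here states its version. GCRMA corrects background by probe sequence and has a floor, so differences between low values are compressed. The log2 values were used as deposited. The table holds 22810 probe sets, 64 of them controls that were not tested. The platform annotation gives a single gene to 13513 probe sets, more than 1 to 503 and lists no entry for 8730. RefSeq (TAIR10.1) matched 13436 of the 13513. Where a gene had several probe sets, the one with the highest mean was used.

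The test was limma 3.58.1 under R 4.3.3 (lmFit, eBayes, genotype only), adjusted by Benjamini-Hochberg over 22746 probe sets. The prior had 0.401 degrees of freedom. The number of arrays limits the precision. If the dimmer genotype stayed under 3 on its 3 arrays, a bound was counted from that level. The members and lists were chosen with earlier results of these data known. The text names all measured members, from each other pathway list up to 6 called genes and the 4 brightest not called, the 5 genes most like AT1G12010, probe sets with its step and its 4 measured neighbours on each side, of which 1 is not reported here. Alternatives were quantile normalization, centring on array medians, a mean of at least 4, array weights, a trended robust prior, a block for the replicate number, other thresholds and leaving out each array. Python 3.11.15 was used for the rest.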

Additional observations from a re-analysis of the deposited data

How the results depend on the processing

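AT1G12010, AT5G12270, AT1G04350, AT1G06620, AT1G06640 and AT1G06650 kept their direction and their side of the call in all 77 values computed under the alternatives, and 2 of them were called under each. The 2 are AT1G12010 and AT5G12270, whose changes were known when the genes were listed. Nothing is read from their staying called in refits of the same arrays. For AT1G06640 the kept direction rests in part on a value that rounds to 0. Under quantile normalization its log2 fold change was -0.0, against -0.16 as deposited, and that of AT1G06620 was -0.08, against -0.24. AT1G06620 drops out when a mean of at least 4 is required. Each has 1 probe set, so other probe sets of a gene could not be tried. The lower bound of AT1G12010 was 154-fold from a level of 3, 217 from 2.5 and 76.8 from 4. The labels do not say whether plants with the same replicate number were handled together. Deviations of plants with the same number correlated with r of -0.26, 0.01 and -0.05 over 15592 probe sets. For plants with different numbers r ran from -0.18 to 0.21. A shared batch was not tested. With the replicate number as a block, 133 probe sets were called in place of 966, and 0 other dioxygenases in place of 2, AT5G05600 (adjusted p = 0.10 from limma) and AT1G35190 (0.13) being lost, and 0 of the 10 pollen genes in place of 6 (4 to 7 when 1 array was left out, 4 without mutant replicate 2). With no limit on the fold change, 3697 probe sets and 3 other dioxygenases passed, *AOP1* being the third. Leaving out 1 array gave 518 to 746 probe sets, with 577 and 518 without mutant replicate 1 or 2 and 594 and 553 without L*er* replicate 2 or 3, and 0 to 3 other dioxygenases: 0 without any 1 of those 4 plants, 1 without *tink/ibr5-6* replicate 3 and 3 without L*er* replicate 1. Log2 fold changes near 0 turned in sign for *EIN3*, which ran from -0.02 to 0.01 over the fits that leave out 1 array and turned without mutant replicate 2 or L*er* replicate 2 or 3, for *RTH*, which ran from -0.05 to 0.14 and turned without L*er* replicate 2, for AT1G12000, which ran from -0.06 to 0.15 and turned without mutant replicate 3 (-0.04) or L*er* replicate 1, and with array weights (-0.02), and for *PDF1.2b*, AT1G11970, AT1G11990 and AT1G12030, all at the floor, with arrays centred on their medians (-0.01). Over the 39 named genes and probe sets followed, 467 of 495 values kept direction and call, 16 lost the call, 1 gained it and 11 turned. Changes in genes at the floor of 2.1011 could not be measured. The same may hold where a probe set repeats a low value of its own, as for *PDF1.2* and AT2G38240.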
